A study of Mus musculus with 4 samples.

Results

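The genes described here are 7 targets of the tumour suppressor p53 that brake growth or promote cell death: Cdkn1a, Gadd45a, Perp, Trp53inp1, Sesn1, Sesn2 and Ddit4. They were chosen by gene symbol, and all 7 were measured, by 9 of the 10861 probe sets in the table, or 7 of the 6404 genes. In D816V cells Ddit4 was higher by 3.58-fold and Cdkn1a by 1.48-fold than in Del417-419insY cells, and Perp was lower by 2.35-fold. The other 4 genes did not pass the test between the mutants, which called 42.9% of the members and 42.6% of all genes. No member passed the test for stem cell factor (SCF), and neither did any other of the 6404 genes. Sesn1 came nearest among the members, at 0.52 and 0.76 higher on the log2 scale with SCF in Del417-419insY and D816V cells. Gadd45a was low on 1 array only, that of D816V cells with SCF.

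EML cells are a mouse lymphohematopoietic progenitor line whose growth depends on SCF acting through the receptor tyrosine kinase KIT. Mutant KIT was brought in on a retroviral vector, and the carriers were picked first by geneticin, then by growth without added factor, then by sorting for KIT. All 4 groups share these steps. The groups are Del417-419insY KIT without added agent, Del417-419insY KIT with 250 ng/mL SCF for 48 hours, and D816V KIT likewise without and with SCF. Del417-419insY lies in the extracellular part of KIT and D816V in its kinase domain. Each group is 1 Affymetrix array and each mutant 1 selected population, so no value has a replicate and no difference could be set against a spread between cultures. The labels give a time for the SCF arrays only. In bulk RNA, fewer cells expressing a gene and less RNA per cell cannot be told apart.

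p53 is a transcription factor that is stabilised by DNA damage and other stresses and switches on genes for arrest, repair and death. Cdkn1a encodes p21, an inhibitor of cyclin-dependent kinases, and Gadd45a a small stress protein that acts on the cell cycle and DNA repair. Perp encodes a membrane protein of desmosomes that takes part in apoptosis, and Trp53inp1 a nuclear protein that aids p53 activity and autophagy. Sesn1 and Sesn2 encode sestrins, and Ddit4 encodes REDD1, proteins that restrain the growth kinase complex mTORC1. Several of these genes also answer to factors other than p53, and the inputs named here are not a full list. FOXO proteins act on Sesn1 and Gadd45a, ATF4 on Sesn2, and hypoxia, glucocorticoids and ATF4 on Ddit4.

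The following sequences come from the starts of the genes. RefSeq windows of 300 bases (250 before to 50 after a start, build GRCm38.p6) were at hand for 5 members, with 7 windows in all. The Cdkn1a stretch is shown because it holds a pair of p53 half-sites and Cdkn1a is the best-known p53 target, the Gadd45a and Sesn1 stretches because each holds a p53 half-site, and the Ddit4 stretch because the gene gave the largest difference between the mutants. Capitals mark the match, and each stretch is written along the gene's own strand.
Cdkn1a, upstream start, chr17:29090879-29090978, plus strand: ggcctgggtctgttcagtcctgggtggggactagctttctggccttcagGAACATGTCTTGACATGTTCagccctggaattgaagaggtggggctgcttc
Gadd45a, chr6:67037408-67037507, minus strand: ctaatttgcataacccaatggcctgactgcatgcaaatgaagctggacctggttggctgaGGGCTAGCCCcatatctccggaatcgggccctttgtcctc
Sesn1, downstream start, chr10:41887189-41887288, plus strand: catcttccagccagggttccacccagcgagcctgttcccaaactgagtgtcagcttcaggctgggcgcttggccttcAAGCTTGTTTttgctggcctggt
Ddit4, chr10:59951921-59952020, minus strand: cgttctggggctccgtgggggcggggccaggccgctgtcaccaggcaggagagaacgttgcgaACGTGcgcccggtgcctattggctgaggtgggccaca

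In the Cdkn1a window a pair of adjacent p53 half-sites, with at most 1 mismatch in 20 bases, ran from -51 to -32 relative to the upstream start. Of all 32851 windows 29 held such a pair (0.0883%), and of the 7 member windows 1 did; this definition was chosen after the sequence was seen. A single p53 half-site of 10 bases, with no mismatch, was in 3 of the 7 windows and in 8.36% of all. Those were the same Cdkn1a window, where 1 of its matches overlaps the pair, the Gadd45a window (-40 to -31) and 1 Sesn1 window (-173 to -164). The hypoxia response core ACGTG stood at -187 to -183 of Ddit4, in 1 of the 7 windows and 19.6% of all. The FOXO letters TGTTTAC were in the other Sesn1 window, after the start, and in 3.65% of all windows. None of the 7 windows held the STAT letters TTCNNNGAA (8.30% of all), the ATF4 core TGATGNAA (3.97%) or TATAAA (13.6%). All motifs were searched on both strands, and a match describes letters, not binding.

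Values are relative log2 levels, each probe set with its own zero, so arrays can be compared for a gene but genes cannot be compared with each other. Array medians ran from -0.20 to -0.02, with the array of SCF-treated D816V cells lowest and also widest in spread (SD 0.79 against 0.59 to 0.72). Over all genes the median difference of D816V from Del417-419insY cells was -0.10, and 0.04 after cyclic loess. The limma fit called 1147 genes higher and 1579 lower in D816V cells, counts that quantile normalization turned to 1526 and 1387, cyclic loess to 1628 and 1263 and median centring to 1720 and 1302. Of the progenitor markers 7 of 12 were measured, with 2 higher and 4 lower in D816V cells (85.7% against 42.6% of all genes). Spn and Gata2 were higher, at log2 differences of 0.58 and 0.46, and the lower ones included Kit at -1.42 (-0.81 after cyclic loess) and Myb at -0.68 (-0.43 after cyclic loess). Gata2 and Myb lost their calls without the SCF term (limma adjusted p = 0.0885 and 0.0641), where 3 of the 7 markers and 1603 of all 6404 genes were called. Lmo2, lower at -0.43, lost its call there and also after quantile normalization, cyclic loess and median centring. Of the fibroblast and endothelial markers 2 of 12 were measured, Pdgfrb at -0.12 and Pecam1 at -0.04. Neither passed, and both turned positive after cyclic loess, where Pdgfrb passed. On this relative scale the markers cannot show whether a cell type was present, and their part in the members' differences was not tested.

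**Figure D1:**
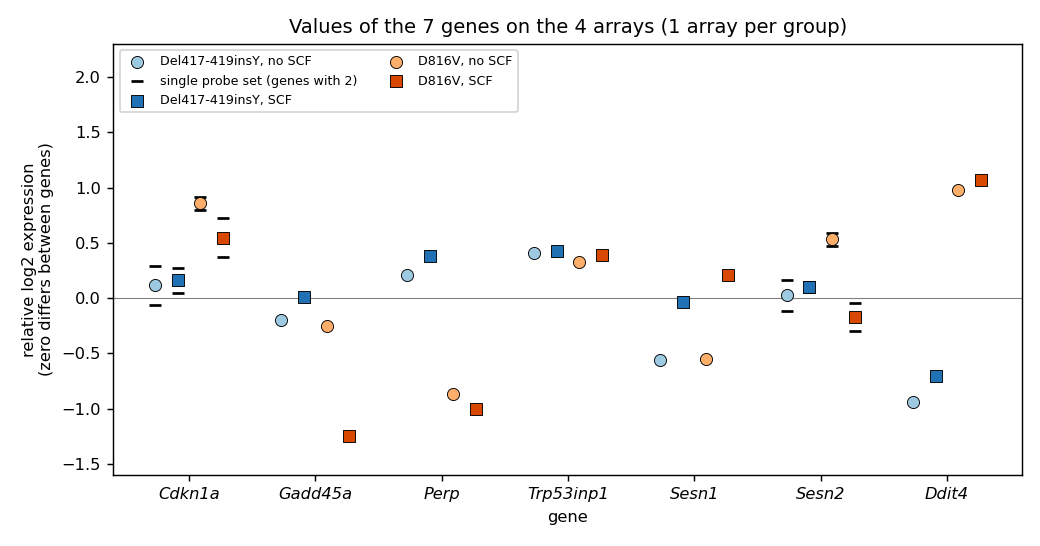
Relative log2 expression of the 7 genes (vertical axis; the zero differs between genes) on the 4 arrays, circles without and squares with SCF, blue for Del417-419insY and orange for D816V; dashes give the single probe sets of Cdkn1a and Sesn2. Ddit4 ran from -0.94 to 1.07 with both D816V arrays on top, Perp from -1.01 to 0.38 with both at the bottom, and Trp53inp1 spanned 0.11 in all.

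The comparison of the mutants addresses how KIT altered outside the cell and KIT altered in its kinase domain differ in the expression that goes with them. Of the 7 genes 3 passed the limma test between them, 2 higher and 1 lower in D816V cells, where 17.9% of all genes were higher and 24.7% lower. That is 42.9% of the members beside 42.6% of all 6404 genes, so as a group they were called no more often than the genes measured. The table holds 10861 of the array's 45101 probe sets, and its filter is not stated. Shares of all genes therefore may not hold for the whole array. Their median difference was 0.12, beside -0.10 over all genes. On 5 of the 7 genes both D816V arrays lay on 1 side of both Del417-419insY arrays, a separation that 69.8% of all genes showed; for Gadd45a and Trp53inp1 it was narrow and did not outlast median centring. The fit sets the mean of both differences against the change of the difference with SCF, so its standard errors hold no repeat culture.

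Among the brakes of the cell cycle, Cdkn1a stood at 0.11 in Del417-419insY cells without SCF and 0.16 with SCF. It stood at 0.86 in D816V cells without SCF and 0.55 with SCF. Both D816V arrays were above both Del417-419insY arrays, and the gap was wider without SCF (0.74, or 1.67-fold) than with it (0.39, or 1.31-fold). The mean difference was 0.56 (SE 0.14, limma adjusted p = 0.0291). Both probe sets of Cdkn1a were higher in D816V cells, by 0.86 and 0.63 without SCF and by 0.32 and 0.45 with SCF. The call was lost without the SCF term in the model, where the adjusted p was 0.0538; over the 8 alternatives it ran from 0.00296 to 0.0538.

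Gadd45a behaved differently from Cdkn1a on the arrays. It stood at -0.20 and 0.01 in Del417-419insY cells without and with SCF, at -0.25 in D816V cells without SCF and at -1.25 in D816V cells with SCF. Without SCF the mutants were within 0.05 of each other, with a sign that turned after each of the 3 scalings (0.04, 0.12 and 0.04 after quantile normalization, cyclic loess and centring). With SCF the difference was -1.26, or 2.40-fold lower in D816V cells. The mean difference of -0.66 (SE 0.29) had a limma adjusted p of 0.122. The low value sits on the array with the lowest median; after each array was centred on its median the difference with SCF was -1.11, and after cyclic loess -0.92.

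Perp, on the side of cell death, was lower in D816V cells in both conditions. It stood at 0.21 and 0.38 in Del417-419insY cells without and with SCF, and at -0.87 and -1.01 in D816V cells. On the deposited scale no D816V array came within 1 log2 unit of a Del417-419insY array. The differences were -1.08 and -1.38, which are 2.12-fold and 2.61-fold lower, and their mean was -1.23 (SE 0.13, limma adjusted p = 0.00288). The difference without SCF was -0.93 after cyclic loess and -0.995 after centring. Perp has 1 probe set, so no second reading of it exists here. Trp53inp1 was the flattest member, at 0.41, 0.43, 0.32 and 0.39 in Del417-419insY cells without and with SCF and D816V cells without and with SCF. Its mean difference of -0.06 (limma adjusted p = 0.675) turned to 0.06 after median centring.

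Among the brakes of mTORC1, Ddit4 gave the largest difference of the 7 genes. It stood at -0.94 without and -0.70 with SCF in Del417-419insY cells, and at 0.97 and 1.07 in D816V cells. The gap was 1.91 without SCF and 1.77 with SCF, or 3.76-fold and 3.41-fold. Its mean of 1.84 (SE 0.12, limma adjusted p = 0.000601) ranked 268th by size among all 6404 genes. Ddit4 was called under all 8 alternatives, with differences from 1.84 to 1.96; it too has 1 probe set.

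The 2 sestrins did not show the pattern of Ddit4. Sesn1 stood at -0.56 without and -0.04 with SCF in Del417-419insY cells, and at -0.55 and 0.21 in D816V cells, so the mutants were 0.01 apart without SCF and 0.25 with it (0.15 and 0.48 after cyclic loess). Sesn2 stood at 0.03 and 0.10 in Del417-419insY cells and at 0.53 and -0.17 in D816V cells. It was thus the highest of the 4 arrays in D816V cells without SCF and the lowest in the same cells with SCF. Its differences of 0.51 and -0.27 had opposite signs, as 15.1% of all genes did, and both probe sets showed this turn, with 0.71 and 0.30 without SCF and -0.36 and -0.19 with SCF. The difference with SCF shrank to -0.14 after quantile normalization and -0.12 after centring. The mean differences of Sesn1 and Sesn2, 0.13 and 0.12, had limma adjusted p-values of 0.433 and 0.667. After cyclic loess that of Sesn1 was 0.31 (adjusted p = 0.0963), and after centring that of Sesn2 was 0.24 (adjusted p = 0.284).

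By size alone, 2 members (Ddit4 and Perp) differed 2-fold or more without SCF, where 10.5% of all genes did, and 3 (these and Gadd45a) with SCF, where 13.8% did. Gadd45a fell short of 2-fold after quantile normalization (-0.94) and cyclic loess. Perp without SCF did so after cyclic loess (-0.93) and, narrowly, after centring (-0.995). In both conditions and 1 direction the 2 were Ddit4 and Perp, beside 8.93% of all genes.

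**Figure D2:**
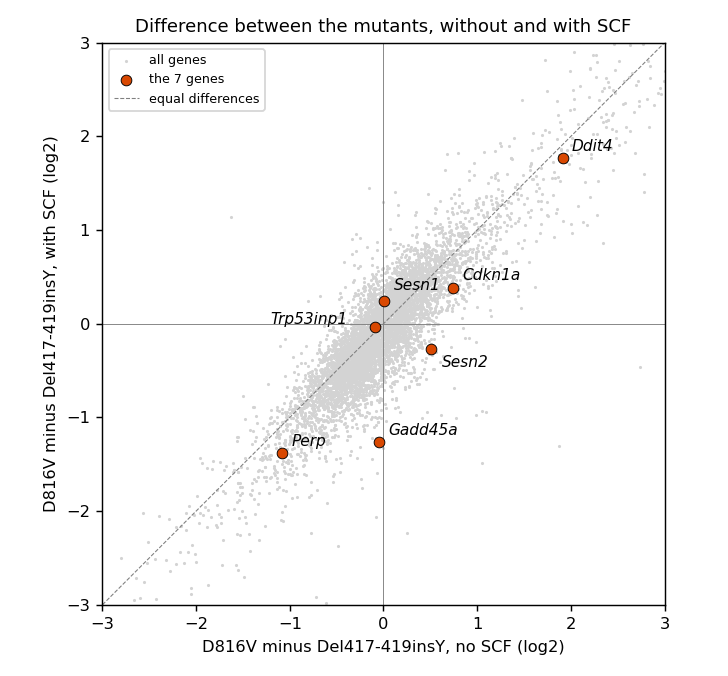
D816V minus Del417-419insY on the log2 scale without SCF (horizontal) and with SCF (vertical), for the 7 genes (orange) and all genes (grey; 115 lie outside the axes); the dashed line marks equal differences. Ddit4 and Perp lie near the line at both ends, while Gadd45a (-0.05 and -1.26) and Sesn2 (0.51 and -0.27) lie below it; the first of the Gadd45a values turned positive after each scaling.

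Setting arrays with SCF against those without asks what the ligand adds in cells that already grow without it. The limma fit called 0.0% of genes for SCF, 0 of 6404, and 0 of the 7 members, while 1186 genes (18.5%) and 1 member, Sesn1, had an unadjusted p under 0.05. Sesn1 was higher with SCF in both lines, by 0.52 (1.44-fold) in Del417-419insY and 0.76 (1.69-fold) in D816V cells. It was the only member whose SCF arrays both lay on 1 side of the arrays without SCF, which 23.0% of all genes showed. Its mean difference of 0.64 (SE 0.13) had an unadjusted limma p of 0.00349 and an adjusted p of 0.145; it ranked 206th by size among 6404 genes. After median centring the adjusted p was 0.031, a call, and over the 8 alternatives it ran from 0.031 to 1.0.

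The SCF differences of Ddit4 (0.24 and 0.09 in Del417-419insY and D816V cells) and Trp53inp1 (0.02 and 0.07) were small beside those of Sesn1. Those of Cdkn1a were 0.05 and -0.31. Its first value became -0.02 with the probe set of the highest mean. Those of Perp were 0.17 and -0.14, and the second became 0.11 after quantile normalization and 0.01 after cyclic loess.

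Gadd45a and Sesn2 gave the widest gaps between the lines' SCF differences. Gadd45a differed by 0.22 with SCF in Del417-419insY cells and by -1.0 in D816V cells. On that array pair 105 genes (1.64%) and 1 member, Gadd45a, differed 2-fold or more; in Del417-419insY cells 0.874% of genes and no member did. Gadd45a was at the 2-fold limit itself and fell inside it after quantile normalization (-0.73), cyclic loess (-0.82) and centring. The gap between its SCF differences, -1.22, ranked 50th by size among 6404 genes. Sesn2 differed by 0.07 and -0.70, a gap of -0.78 that ranked 236th. The first of these was -0.02 with the probe set of the highest mean, and the gap then -0.49. In 5 of the 7 genes the SCF difference was lower in D816V than in Del417-419insY cells, as in 58.3% of all genes. Signs were opposite in 4 of the 7 and in 34.3% of all genes. With 1 array per group none of these gaps could be tested.

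**Figure D3:**
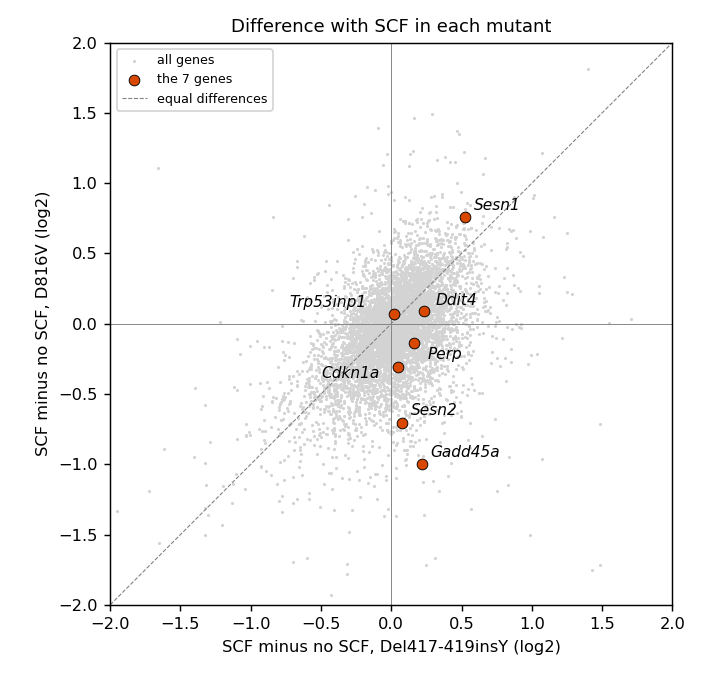
Log2 difference with SCF from no SCF in Del417-419insY cells (horizontal) and D816V cells (vertical), for the 7 genes (orange) and all genes (grey; 6 lie outside the axes); the dashed line marks equal differences. Sesn1 is up on both axes (0.52 and 0.76), and Gadd45a (0.22 and -1.0) and Sesn2 (0.07 and -0.70) lie far below the line; the first Sesn2 value turned to -0.02 with the probe set of the highest mean.

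The other genes of the pathway were taken from lists of known targets and partners. Of 40 further p53 targets 21 were measured, and 2 were higher, 3 lower and 16 not called between the mutants, 23.8% against 42.6% of all genes. Ak1, an adenylate kinase, was the highest at 2.27 (SE 0.27, limma adjusted p = 0.00379), and at 1.21 after cyclic loess, where it was still called. Mdm2, the ubiquitin ligase that p53 induces and that in turn removes p53, was 0.41 higher (adjusted p = 0.0439, or 0.134 without the SCF term). Btg2, an antiproliferative gene, was lower by -0.85 (adjusted p = 0.0172). The DNA repair genes Xpc and Ercc5 were lower too, by -0.60 and -0.43, and Ercc5 lost its call after median centring. Mdm2, Xpc and Ercc5 fall outside the naming rule and were named after their values were seen. The median of the 21 was 0.08. The counts were 4 higher and 4 lower after quantile normalization, 5 and 4 after cyclic loess and 6 and 2 after centring. In these settings 8, 9 and 8 of the 21 were called, beside 2913, 2891 and 3022 of all 6404 genes. Trp53 itself was looked for but was not among the 6404 genes measured. Of p53 and its regulators 11 of 17 were measured, with Mdm2 higher and 2 lower (27.3% against 42.6% of all genes): the damage kinase Atm at -0.45 and the p53-binding protein gene Trp53bp2 at -0.44, which lost its call after all 3 scalings, Atm after centring. Without the SCF term, a setting with 1603 calls over all genes in place of 2726, none of the 11 regulators was called, and calls numbered 3 among the other p53 targets.

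**Figure D4:**
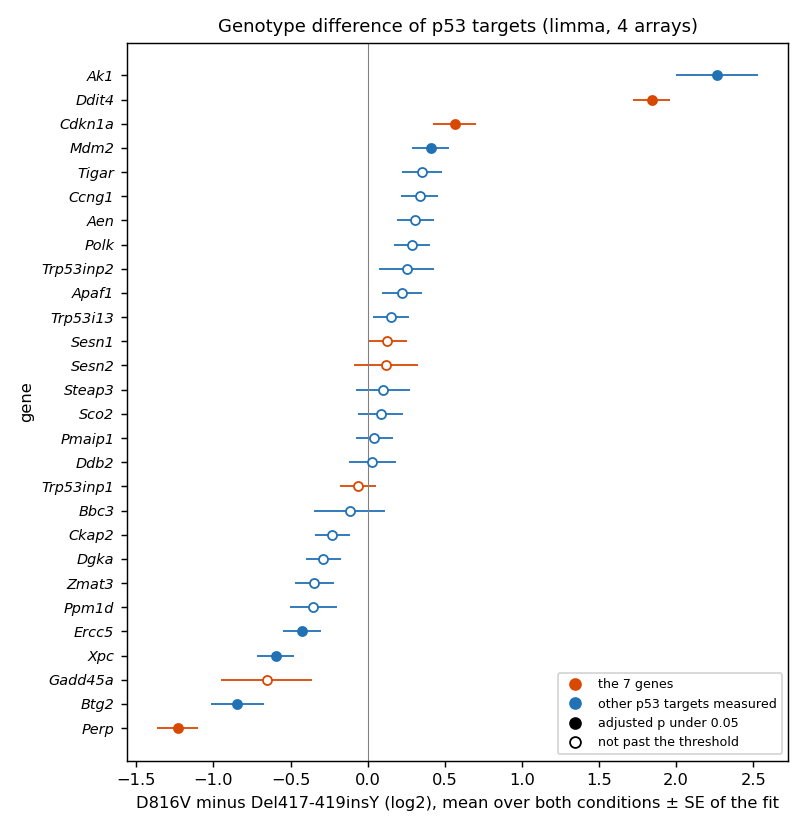
D816V minus Del417-419insY on the log2 scale, as the mean over both conditions with the standard error of the limma fit, for the 7 genes (orange) and 21 other p53 targets (blue); filled points passed an adjusted p of 0.05. The differences run from -1.23 (Perp) to 2.27 (Ak1), with called genes at both ends; Ak1 was at 1.21 after cyclic loess, and the call of Ercc5 was lost after centring.

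Among the relatives of the members, 7 of 13 CDK inhibitor, GADD45 and sestrin family genes were measured. Of these 2 were higher in D816V cells and none lower, 28.6% called against 42.6% of all genes: Gadd45gip1, whose product binds GADD45 proteins and serves the mitochondrial ribosome, at 1.13 (adjusted p = 0.00333), and the CDK inhibitor gene Cdkn2d at 0.86 (adjusted p = 0.00645). Both quantile normalization and centring made this 4 higher. That was 4 of 7, beside 2913 and 3022 of all 6404 genes, so the share was then above that of all genes. Gadd45b did not follow Gadd45a. Its difference between the mutants was 0.15 without and 0.62 with SCF, and its SCF difference was 0.27 in Del417-419insY and 0.74 in D816V cells, where Gadd45a stood at -1.0. Of the cyclins, CDKs and other proteins that p21 acts on or through, 14 of 18 were measured, with 3 higher and 3 lower, 42.9% against 42.6% of all genes. Ccnd1, cyclin D1, was lower by -1.32 (adjusted p = 0.00183), Ccne1, cyclin E1, higher by 0.63, and Pcna, which p21 binds, stood at -0.06.

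Of the mTORC1, TSC and GATOR genes, the machinery that sestrins and REDD1 act on, 9 of 23 were measured, with 1 higher and 2 lower (33.3% against 42.6%). Deptor, an inhibitor subunit of mTOR, was lower by -1.05 (adjusted p = 0.00334), opposite to Ddit4, and by -0.41 after cyclic loess, where it was still called. Mios, a GATOR2 subunit, was higher by 0.47 (adjusted p = 0.0347, or 0.0669 without the SCF term). Of 13 measured genes that answer to glucocorticoids or hypoxia, the other known inputs of Ddit4, 3 were higher and 5 lower (61.5% against 42.6%). Zbtb16 was lower by -1.52, and the hypoxia gene Ankrd37 by -0.63 between the mutants, while its SCF differences were 1.40 and 1.82. The Ankrd37 value was -1.06 after both quantile normalization and cyclic loess, and its call was lost without the SCF term (adjusted p = 0.485). The 3 higher were hypoxia genes, Ero1a at 1.04, Slc2a1 at 0.74 and Bnip3 at 0.62. Also lower were the hypoxia genes Egln3, Pdk1 and Hk2. Slc2a1, Bnip3 and Pdk1 lost their calls without the SCF term, and Bnip3 and Hk2 after cyclic loess. Slc2a1, Bnip3, Egln3, Pdk1 and Hk2 were named after their values were seen. Of 18 measured FOXO targets 4 were higher and 2 lower, 33.3% against 42.6% of all genes. Klf6 and Cited2 were both at 1.15, and on the lower side Bcl6, named after its values were seen, was at -1.12 (-0.54 after cyclic loess). The FOXO counts became 8 and 4 after cyclic loess and 7 and 3 after both quantile normalization and centring. That was 12 of 18, beside 2891 of all 6404 genes, and 10 of 18, beside 2913 and 3022. The FOXO share was then above that of all genes.

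Of the members described above as answering to ATF4, Sesn2 had a gap of -0.78 between the lines' SCF differences and Ddit4 a gap of -0.14. Gadd45a, described above under FOXO proteins, had a gap of -1.22. These members can be set beside the ATF4 and CHOP targets, a list chosen with earlier results of these data known. Of 14 such genes measured, all 14 had a lower SCF difference in D816V than in Del417-419insY cells, also after each of the 3 scalings, a sign that 58.3% of all genes had. Their median gap was -0.93 beside -0.06 over all genes. The sign was the same in 13 of the 18 FOXO targets (median gap -0.31) and 9 of the 13 glucocorticoid and hypoxia targets (median gap -0.05). Nupr1, a stress-induced chromatin protein gene, differed by 1.48 with SCF in Del417-419insY and -1.72 in D816V cells. Between the mutants 1 of the 14 was higher, the oxidase gene Ero1a at 1.04, and 1 was lower, the serine synthesis gene Psat1 at -0.82 (adjusted p = 0.0369, or 0.0722 without the SCF term), 14.3% in all against 42.6%. Psat1 was named after its values were seen. Whether ATF4 had a part in the members' differences was not tested.

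By the distance between patterns over the 4 arrays, each gene taken relative to its own mean, the genes most like Ddit4 were Ngly1 (distance 0.07), which encodes a deglycosylating enzyme, and the TNF family cytokine gene Tnfsf14 (0.11). Those most like Perp were the homeobox gene Dlx1 and the receptor kinase gene Grk3 (0.06 each). Those most like Gadd45a were Asns, asparagine synthetase (0.13), a gene of the ATF4 and CHOP list, and Lztfl1 (0.15). Asns stood at -0.06, 0.05, -0.13 and -1.03 in the order Del417-419insY without and with SCF and D816V without and with SCF, so it too was low on the last array only. With 4 arrays such likeness is a description of these arrays.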

How the data were processed

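RNA of 4 EML cultures was hybridised to Affymetrix M430 2.0 arrays, per the labels' protocols. The deposited log2 values were made by the authors with RMA, per the submitters' processing notes; version, filter and the zero of each probe set are not given in the sources used here, and base 2 is taken from RMA's usual output. The table holds 10861 of the 45101 probe sets the design text states. Of these 9633 had 1 gene symbol, 264 several and 964 none; symbols were updated through gene IDs to RefSeq (GRCm38.p6), and 11 IDs without a match kept theirs. A gene's value is the mean of its probe sets.

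limma 3.58.1 in R 4.3.3 was fitted to 6404 genes as ~ genotype + SCF over 4 arrays, two-sided, with Benjamini-Hochberg adjustment and a threshold of 0.05. Its 1 residual degree of freedom is the difference between the SCF responses (prior 4.1 degrees of freedom, SD 0.127). With 1 array per group, p-values cover no repeat cultures and the number of arrays limits precision. The fit was tested on simulated data. Size counts use 2-fold (1 on the log2 scale). Alternatives were quantile, cyclic loess and median scaling, the highest-mean probe set, 1 term, an intensity trend, robust eBayes, single probe sets and leaving out the lowest 25% of genes by mean. Members and lists were chosen with earlier results of these data known. The rule for names was: all members; from each list up to 4 genes 2-fold apart in 1 direction in both conditions or both lines, or else the 2 with the largest genotype difference; and the 2 genes most like each member with a range of 1 or more. Other genes were named after their values were seen.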

Additional observations from a re-analysis of the deposited data

Results flagged for a closer look

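In 4 of the 7 genes the SCF differences in the lines had opposite signs. The difference in D816V minus that in Del417-419insY cells was -1.22 for Gadd45a, -0.78 for Sesn2, -0.36 for Cdkn1a and -0.30 for Perp. Sesn2 also had genotype differences of opposite sign, 0.51 without and -0.27 with SCF, which is the same gap of -0.78 read the other way. With 1 array per group these differences were not tested, and 34.3% of all genes had opposite signs between the lines. The opposite signs were lost for Perp after quantile normalization and cyclic loess. For Cdkn1a and Sesn2 the opposite signs between the lines were lost with the probe set of the highest mean.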

How the results depend on the processing

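No paired analysis was possible because the labels give no replicate numbers and each group is 1 array. Leaving out an array leaves no residual degree of freedom, so the differences within each condition stand in for it. Some alternatives could change only a member's call, not its mean difference. They were 1 term, an intensity trend, robust eBayes and the lowest 25% left out. The same held for the highest-mean probe set in the 5 members with 1 probe set. Of 108 alternative fits of the members' mean differences, with these included, 105 kept direction and call. The exceptions were Cdkn1a without the SCF term (adjusted p = 0.0538), Sesn1 with SCF after median centring (adjusted p = 0.031), and Trp53inp1, which turned from -0.06 to 0.0565 after centring. Gadd45a and Perp were in the lowest 25% by mean and had no value under that filter. Each probe set has its own zero, so this mean does not rank genes by expression. The intensity trend and the highest-mean probe set rest on such means too. The cause of the exceptions was not tested. Calls between the mutants were 1603 with 1 term and 4131 of 9633 single probe sets. Calls for SCF were 2 after quantile normalization, 42 after cyclic loess, 10 with an intensity trend, 256 after centring, 256 for genes read by their highest-mean probe set, and 257 single probe sets. Genes 2-fold apart with SCF, 56 in Del417-419insY and 105 in D816V cells, became 86 and 58 after quantile normalization and 119 and 171 with the highest-mean probe set. Signal over background could not be examined.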
